A study of Mus musculus with 3 samples.

Results

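The regions described here are stretches of mouse chromosome that were accessible in all of the 3 states assayed, SOX2-ON, SOX2-OFF and CEpiLC. They were chosen from the deposited peak calls alone. All peaks of the 3 lists on 16 of the 19 autosomes were merged wherever they touched, which gave 144115 merged regions, and a region was a member if all 3 lists had a peak in it. This held for 44977 regions, or 31.2% of the merged regions and 54.9% of their bases (66.9 Mb). Chromosomes 6, 8 and 11 were left out because peaks on them were far denser than on the 16 others. Of the remaining regions 27396 had peaks of 2 lists and 71742 of 1 list, and together they are called the other regions. Because peak presence chose the members, peak counts and strengths are given as descriptions, while position, sequence and nearby genes were not used in the choice.

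The assay was ATAC-seq, in which a transposase inserts sequencing adapters into exposed DNA, on 50000 cells per sample. Each state was represented by 1 sample, and all cells were embryonic stem cells of the HM1 (129) strain differentiated for 72 h, with 10 ng/ml bFGF and 5 µM LGK974, an inhibitor of WNT secretion, from the start and with the WNT activator CHIR99021 added after 2 days. CEpiLC, the caudal epiblast-like state, was wild type and untreated. SOX2-ON and SOX2-OFF were both Sox2-/- and came from a single engineered line that carries rtTA at Rosa26 and a doxycycline-inducible Sox2 transgene at Hprt. The study's methods name HM1 TetON, the parent line that received the transgene, as the wild-type control. The study describes that parent as expressing rtTA. Doxycycline at 1 µg/ml was kept in the medium of SOX2-ON and withdrawn during differentiation in SOX2-OFF. No difference between states could therefore be set against a spread between samples, a difference between states and a difference between samples cannot be told apart, and no p-value was calculated. Intervals in brackets are 95% Wilson intervals. They cover counting error over regions only, since regions of 1 sample are not replicates.

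Accessible DNA falls into a few broad kinds. Promoters of active or poised genes, above all those within CpG islands, tend to be open in most cell types, and are bound by factors such as SP/KLF, ETS, NRF1 and NFY proteins. CTCF, which blocks and anchors chromatin loops, keeps many further sites open in most tissues. Enhancers are more often open in particular cell states. In the epiblast they are bound by SOX2 with OCT4, and after WNT signalling by TCF/LEF proteins with β-catenin. SOX2 maintains pluripotent and neural progenitors, and T (Brachyury) and the CDX factors mark the caudal epiblast that builds the trunk.

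Sequences of the members that the results turn on are given first, from the mm10 (GRCm38) genome, on the plus strand unless stated and with matches to the named motif in capitals. In the 200 bp at the centre of all 144115 merged regions, a CTCF match, read from a consensus of 14 bases with up to 2 mismatches, was found in 3.89%, a SOX match (ACAATGG or ACAAAGG) in 8.97%, an OCT match (ATGCAAAT) in 1.35% and a TCF/LEF match (ATCAAAG) in 3.37%, counting both strands. All but the CTCF matches were exact, and matches of different motifs may share bases. The first set shows the 2 strongest members away from a start that held a CTCF match and had no copy elsewhere, since CTCF was the motif whose share most set such members apart. CTCF member 1 is chr7:73618426-73618625, between genes, and CTCF member 2 is chr19:44284226-44284425, between genes and 8763 bp from a start of Scd2.
CTCF member 1: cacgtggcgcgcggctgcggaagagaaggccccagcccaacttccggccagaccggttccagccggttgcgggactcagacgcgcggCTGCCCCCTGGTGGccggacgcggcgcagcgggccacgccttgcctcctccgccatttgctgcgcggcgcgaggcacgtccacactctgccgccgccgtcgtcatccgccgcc
CTCF member 2: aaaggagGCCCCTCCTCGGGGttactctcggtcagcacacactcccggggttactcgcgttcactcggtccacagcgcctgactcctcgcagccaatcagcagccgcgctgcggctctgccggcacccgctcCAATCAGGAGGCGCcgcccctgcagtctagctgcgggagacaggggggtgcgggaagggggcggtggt

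The second set shows members that were present in all 3 lists but of very unequal rank. The Tead1 intron window (chr7:112851058-112851257, a SOX and an OCT match) and the Epha3 intron window (chr16:63806611-63806810, a SOX match) ranked high in SOX2-ON alone. The Mmd2 intron window (chr5:142589500-142589699, a SOX match) ranked low in SOX2-OFF alone, and the window upstream of Prox1 (chr1:190048673-190048872, a TCF/LEF match) ranked high in SOX2-OFF alone.
Tead1 intron: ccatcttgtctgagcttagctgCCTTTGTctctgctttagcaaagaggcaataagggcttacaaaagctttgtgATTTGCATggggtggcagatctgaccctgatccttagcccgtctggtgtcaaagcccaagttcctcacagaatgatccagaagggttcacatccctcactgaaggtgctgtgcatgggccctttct
Epha3 intron: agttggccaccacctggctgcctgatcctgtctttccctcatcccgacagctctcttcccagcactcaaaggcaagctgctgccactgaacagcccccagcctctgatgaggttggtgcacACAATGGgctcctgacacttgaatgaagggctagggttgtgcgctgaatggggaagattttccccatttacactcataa
Mmd2 intron: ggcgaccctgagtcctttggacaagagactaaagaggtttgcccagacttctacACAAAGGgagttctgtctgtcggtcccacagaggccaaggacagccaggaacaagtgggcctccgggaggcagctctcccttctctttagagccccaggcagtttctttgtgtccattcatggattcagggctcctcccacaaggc
Prox1 upstream: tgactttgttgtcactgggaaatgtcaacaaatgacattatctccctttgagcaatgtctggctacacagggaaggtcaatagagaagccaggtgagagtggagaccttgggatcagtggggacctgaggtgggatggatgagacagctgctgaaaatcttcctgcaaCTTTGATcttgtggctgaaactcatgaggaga

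The third sequence lies in an intron of Cdx2 (chr5:147304196-147304385) and is shown because the study built a reporter from it. Capitals mark the bases of this stretch that differ in the study's version of the reporter with altered SOX sites.
Cdx2 intron: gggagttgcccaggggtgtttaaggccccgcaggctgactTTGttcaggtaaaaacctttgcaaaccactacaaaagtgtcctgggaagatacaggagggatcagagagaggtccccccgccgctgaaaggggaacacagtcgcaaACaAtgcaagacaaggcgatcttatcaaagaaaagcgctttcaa

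The last set shows promoters, as the 250 bases before a gene's start from RefSeq on GRCm38.p6. Those of Ddx50 and Rps6ka5 belong to starts among the strongest members, and that of T, a marker of the caudal epiblast, to a start of lower rank. Capitals mark SP/KLF (GGGCGGG), ETS (CCGGAAGT) and NFY (CCAATCA or CCAATGA) matches on either strand. Of 25800 RefSeq promoters of this length, 23.4% held an SP/KLF match, 2.98% an ETS match and 10.4% an NFY match. The Ddx50 promoter (chr10:62651219-62651468, minus strand) held all 3, the Rps6ka5 promoter (chr12:100725121-100725370, minus strand) held an SP/KLF match, and the T promoter (chr17:8434173-8434422) held 2 SP/KLF matches.
Ddx50 promoter: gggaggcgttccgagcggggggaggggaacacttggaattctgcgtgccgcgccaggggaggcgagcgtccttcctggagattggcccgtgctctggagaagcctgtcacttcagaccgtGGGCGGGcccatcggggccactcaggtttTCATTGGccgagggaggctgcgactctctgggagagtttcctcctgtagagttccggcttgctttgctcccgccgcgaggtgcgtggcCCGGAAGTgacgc
Rps6ka5 promoter: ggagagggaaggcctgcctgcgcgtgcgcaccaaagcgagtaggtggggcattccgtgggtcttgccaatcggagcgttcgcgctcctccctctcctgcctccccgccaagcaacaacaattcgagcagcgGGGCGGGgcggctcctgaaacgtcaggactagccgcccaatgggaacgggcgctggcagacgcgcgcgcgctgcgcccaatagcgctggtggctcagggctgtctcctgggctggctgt
T promoter: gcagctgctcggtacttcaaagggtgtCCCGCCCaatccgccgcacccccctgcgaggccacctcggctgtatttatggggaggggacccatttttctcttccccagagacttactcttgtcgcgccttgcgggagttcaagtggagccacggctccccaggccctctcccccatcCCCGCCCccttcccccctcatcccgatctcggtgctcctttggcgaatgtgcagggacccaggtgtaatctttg

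Members were wider than the other regions, with a median width of 1351 bp against 430.0 bp. In 41348 members (91.9%) each list contributed exactly 1 peak, so that most were single peaks found again in each sample. The stretch under peaks of all 3 lists at once had a median of 636 bases, and it made up at least 50% of the width in 24499 members (54.5%). A merged region can, however, be covered by all 3 lists without a shared base. This was so in 1220 members (2.71%), and a further 1080 had 1 to 99 shared bases. The widest member (chr17:6436912-6453373, 16462 bp, 14994 bases under all 3 lists) lay in a duplicated stretch near Dynlt1b and matched 103 other places of the genome.

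Weak peaks carried many of the calls. Fold enrichment, the authors' ratio of signal to the local background of the same sample, had a median over members of 2.07, 1.98 and 1.94 in SOX2-ON, SOX2-OFF and CEpiLC. In 12035 members (26.8%) at least 1 list stayed under a −log10 q of 2, whereas 19392 (43.1%) had a −log10 q of at least 5 in every list. Members at the edge of the rule were the weakest. Those with no base under all 3 lists had median within-list percentiles of 24.5, 28.2 and 30.1 in SOX2-ON, SOX2-OFF and CEpiLC, those with 1 to 99 shared bases 24.8, 30.7 and 34.9, and those with 100 or more 69.0, 73.8 and 76.1. Just outside the rule, 251 regions with peaks of 2 lists had a peak of the missing list within 100 bp, and 2706 (9.88%) had one within 1 kb.

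Because fold enrichment and −log10 p grow with sequencing depth, which is not known for these samples, strength is given from here on as the percentile of a peak's −log10 p among all peaks of its own list on the 16 autosomes. The strongest peaks of every list lay in members almost without exception. This held for 99.8% of the top 5000 of SOX2-ON, 100% of those of SOX2-OFF and 99.9% of those of CEpiLC. The lists parted further down. Of ranks 10001 to 20000, 75.9% of SOX2-ON peaks lay in members, against 91.6% in SOX2-OFF and 93.5% in CEpiLC. Among weak peaks the order turned, with 48.3%, 38.3% and 38.0% of ranks 40001 to 60000. Over whole lists 54.8%, 52.5% and 50.3% of peaks lay in members. The share of merged regions that were members varied little between the 16 autosomes, from 28.0% to 35.3% with a median of 30.6%. On chromosomes 6, 8 and 11 together it was 18.4%, with 106, 108 and 85.4 peaks per Mb in SOX2-ON, SOX2-OFF and CEpiLC against 41.4, 42.0 and 46.1 on the 16.

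To ask where in the genome shared accessibility lay, regions were set beside the GENCODE M21 gene annotation. Members lay at promoters far more often than the other regions did, a promoter region being one within 1 kb of an annotated transcript start. Of the members 16904 were at promoters (37.6%, 37.1 to 38.0), against 10.2% (9.98 to 10.4) of the other regions. Introns held 22.0% of members and 40.6% of the others, stretches between genes 29.2% and 38.4%, and exons 11.2% and 10.8%. Members far from any start were rare, with 1.35% over 100 kb away against 3.69%. Most promoter members, 14240 (84.2%), were at a start of a coding gene. Since members were wider and distance was measured from the region's edge, the shares were also taken from the region's centre, where they were 34.0% and 8.58%.

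Promoters dominated among the strongest members and not among the rest. Ordered by the lowest of their 3 percentiles, the weakest decile of members held 17.2% promoters, decile 6 held 21%, decile 8 held 55.7% and the strongest decile 96.4%. From decile 1 to decile 5 the share stayed between 16.7% and 17.9%. There were 3316 members in the strongest decile of members in each of the 3 lists, and 96.8% of them were promoters. Members in the weaker 50% in every list numbered 16859 and were promoters in 17.7% of cases.

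**Figure D1:**
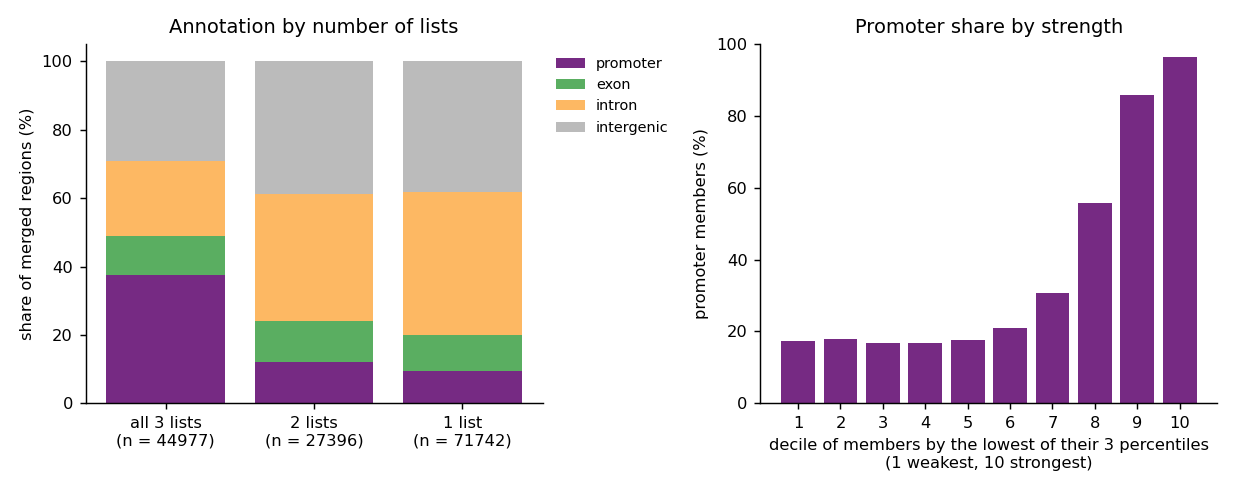
Left, share of merged regions (%) that were promoter, exon, intron or intergenic, as stacked bars for regions with peaks of all 3 lists, of 2 lists and of 1 list. Right, share of members at promoters (%) in each decile of members by the lowest of their 3 within-list percentiles. Promoters made up 37.6% of regions in all 3 lists, 12.0% in 2 and 9.47% in 1, and the share rose to 96.4% in the strongest decile.

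In base composition the promoter members resembled CpG islands. Their central 200 bp had a median GC content of 61.5%, and 52.7% were CpG-rich (at least 50% GC, with an observed to expected CpG ratio of at least 0.6). In the other promoter regions these values were 51.5% and 3.11%. Away from promoters members differed less from the rest, with a median GC content of 51.5% against 49.0% and CpG-rich windows in 5.30% against 1.63%. The CpG-rich share of promoter members followed their strength, from 5.47% in the weakest quintile to 90.9% in the strongest.

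The strength of a member in one list went with its strength in the others far more closely at promoters than elsewhere. Over all members Spearman's rho between percentiles was 0.846 between the SOX2-ON and SOX2-OFF lists. It was lower between CEpiLC and SOX2-ON (0.794) and higher between CEpiLC and SOX2-OFF (0.880). Over the 16904 promoter members these values were 0.959, 0.915 and 0.959, and over the 28073 others 0.670, 0.574 and 0.742. These correlations run across regions that share samples, base composition and depth, and are descriptions. In both kinds SOX2-ON and CEpiLC were the least alike. Percentiles of SOX2-ON and CEpiLC lay 20 points or more apart in 12.6% of promoter members and in 36.7% of the rest. Median percentiles in SOX2-ON and CEpiLC were 88.1 and 89.6 at promoters and 56.1 and 66.4 elsewhere. Promoter members thus had less room to differ by that much.

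**Figure D2:**
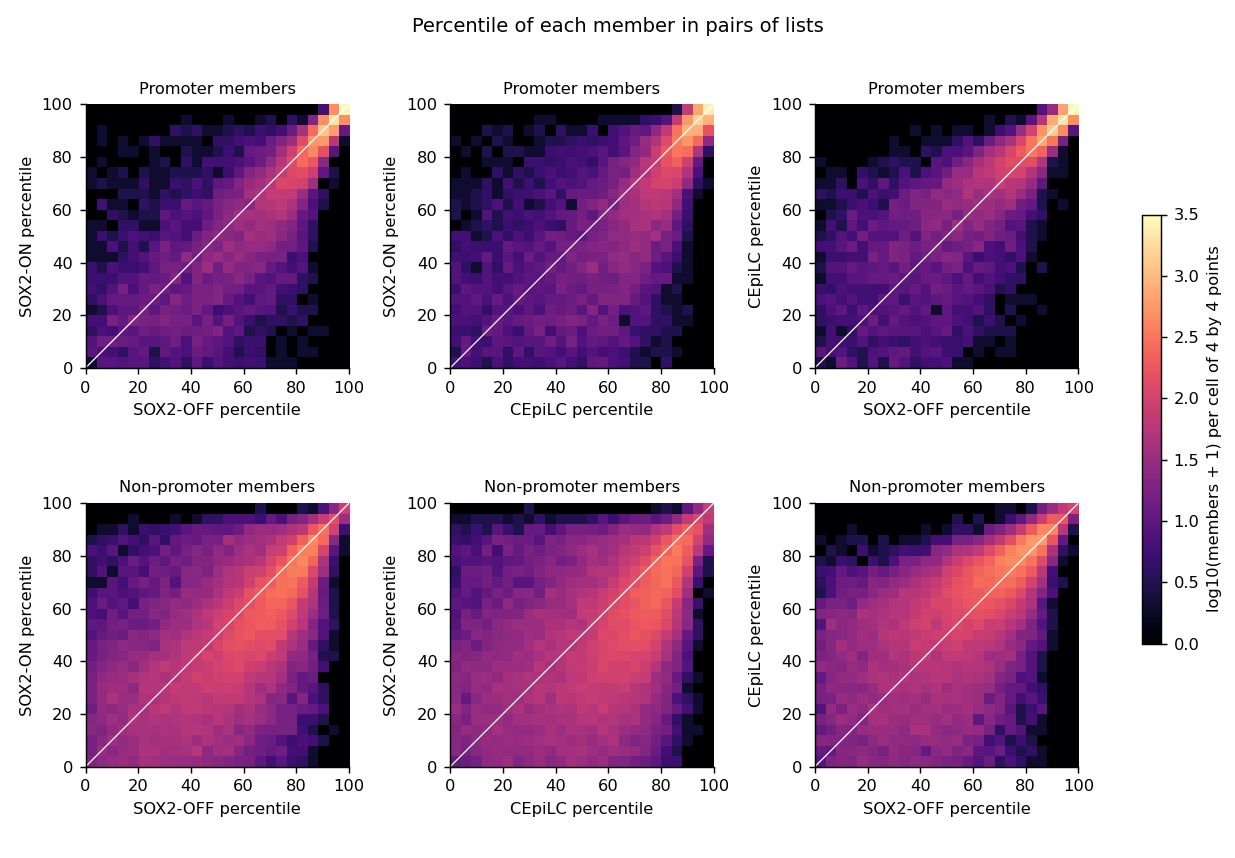
Number of members (colour, log10 of the number plus 1, in cells of 4 by 4 points) by their percentile in 2 lists, with 1 panel for each pair of lists, promoter members in the upper row and non-promoter members in the lower row. The white line marks equal percentiles. Promoter members lie close to it at high percentiles, and non-promoter members spread widely, most so for SOX2-ON against CEpiLC (Spearman's rho 0.574).

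The strongest promoter members were starts of genes with unrelated functions. By the lowest percentile the first 5 were at Gm10718, Desi2, Rps6ka5, Nr1d2 and Laptm4a. The first of them (chr9:3023429-3026350) was 93.5% repeat-masked and matched 12 other places over all of its shared stretch, and the Desi2 member matched 1 other place over 92.6%. The other 3 had no second match. At Rps6ka5, which encodes a histone H3 kinase, fold enrichment was 5.88, 4.43 and 4.30 in SOX2-ON, SOX2-OFF and CEpiLC. At Nr1d2, a circadian nuclear receptor, it was 5.75, 4.45 and 4.05, and at Laptm4a, a lysosomal membrane protein, 7.46, 5.89 and 4.87. Ddx50, an RNA helicase whose promoter is printed above, had 5.97, 4.43 and 3.81 with percentiles of 99.8, 99.8 and 99.5. It was chosen after its values were seen.

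The 8 strongest members away from starts all matched other places in the genome, and most of those after them did not. The first 5 lay in a Lars2 exon (chr9:123461800-123462187), between genes at chr3:5860339-5860628, in a Gphn intron (chr12:78350869-78351174), near Myl12b (chr17:70963661-70963896) and in a Jarid2 intron (chr13:44869571-44870025). Their fold enrichments, from 11.5 to 29.9, were above those of every promoter named here. All 5 matched other places at 95% identity or more, over 64.2% to 100% of the shared stretch. Of the 40 strongest members away from starts, 11 were matched elsewhere over more than 50%. The strongest with no second match, picked after their values were seen, were chr15:85634205-85635389, whose nearest coding gene was Wnt7b, with fold enrichments of 6.34, 5.06 and 4.66, the CTCF member near Chd2 (chr7:73617064-73619181) with 6.27, 4.33 and 3.88, and one in an Arid1b intron (chr17:5189506-5190690) with 6.09, 4.53 and 3.79.

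To ask what sequence the members shared, 22 motifs were counted in the central 200 bp. Beside the motifs given above, SP/KLF letters were found in 5.43% of all merged regions, ETS in 0.515%, NRF1 in 0.0923%, REST in 0.284%, ZIC in 10.1%, CREB in 0.642%, T-box in 1.18% and CDX/HOX in 6.85%. The letters searched for GATA factors, NGATAAG, were in 6.49%. CTCF matches were the clearest mark of members away from starts. They occurred in 2362 of 28073 such members (8.41%, 8.09 to 8.74) and in 2.08% (1.99 to 2.18) of the other regions, or 2.20% if the others are weighted to the members' GC content. The share depended on strength. It was 3.01% in the weakest quintile of these members, 5.84%, 10.2% and 13.1% in the next, and 9.92% in the strongest. The matches clustered near the centre of the members. In the bins of 50 bp on either side of the middle there were 21.9 and 22.9 matches per 1000 members, and in the next bins outward 24.0 and 24.5, compared with 4.03 and 4.52 in the outermost bins, centred 475 bp away. In the other regions the central bins held 5.36 and 5.03, the next 5.91 and 6.98, and the outermost 2.48 and 3.00.

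Both printed CTCF members ranked near the top of each list. The member on chromosome 7 had percentiles of 99.9, 99.7 and 99.4 in SOX2-ON, SOX2-OFF and CEpiLC, and the one on chromosome 19 (chr19:44283588-44284911) had 98.4, 97.5 and 98.0, with fold enrichments of 4.31, 3.13 and 2.91. The first window also held ETS and E-box (CACGTG) matches. A match to a consensus says only that these letters are present, and CTCF binding was not measured here.

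Other motifs away from starts differed less. SP/KLF matches were found in 5.51% of members and 2.29% of the others (3.25% at the members' GC content). REST, the repressor of neuronal genes, had matches in 0.559% (0.479 to 0.654) and 0.211% (0.183 to 0.243), and ZIC, a neural and epiblast factor whose letters CAGCAGG are common, in 12.5% and 9.34%. OCT matches were found in 1.83% (1.68 to 1.99) of members and 1.36% (1.29 to 1.44) of the others. In windows centred on the SOX2-ON peak they were in 1.70% and 1.76%, but there only other regions with a SOX2-ON peak were counted. SOX matches went the other way, with 8.86% (8.53 to 9.20) of members and 9.80% (9.61 to 10.0) of the others, which was 8.99% at the members' GC content. Over whole regions, where members have more bases to search, 40.9% and 22.0% held one.

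Among strong regions, at or above the 80th percentile of a list, the contrast in SOX and CTCF matches was larger. Of 8613 strong members away from starts 9.95% (9.34 to 10.6) held a SOX match, against 16.6% (15.1 to 18.1) of 2433 strong regions that were absent from at least 1 list. GATA matches were in 6.17% and 12.7%. CTCF matches were in 7.60% (7.06 to 8.18) and 1.03% (0.697 to 1.51). Of the strong other regions, however, 1690 reached that percentile in SOX2-ON, compared with 465 for SOX2-OFF and 490 for CEpiLC, so the comparison was repeated 1 list at a time. SOX matches were in 11.6% (10.7 to 12.6) of members strong in SOX2-ON and 21.5% (19.6 to 23.5) of the others, but in 8.27% (7.55 to 9.05) and 7.74% (5.64 to 10.5) in SOX2-OFF and in 8.76% (8.09 to 9.49) and 4.69% (3.15 to 6.94) in CEpiLC. GATA matches were likewise less frequent in members than in the others for SOX2-ON alone (6.80% and 16.3%), with 5.48% and 5.16% in SOX2-OFF and 5.20% and 4.29% in CEpiLC. CTCF matches were more frequent in members in each list, with 6.07% and 0.533% for SOX2-ON, 7.52% and 0.430% for SOX2-OFF, and 8.80% and 2.86% for CEpiLC. The lower SOX and GATA shares of strong members thus held against regions strong in SOX2-ON, and the higher CTCF share in all 3 lists.

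Promoter members held the letters of factors known from CpG-island promoters. SP/KLF matches were in 23.2% (22.5 to 23.8) of promoter members and 3.25% (2.92 to 3.61) of the other promoter regions, which was 16.7% at the members' GC content, so GC content went with much of that difference. For ETS factors the shares were 2.53% (2.31 to 2.78) and 0.337% (0.242 to 0.471), and 0.241% at the members' GC content. For NRF1 they were 0.515% (0.417 to 0.634) and 0.0397% (0.0154 to 0.102), and for CREB (TGACGTNA) 1.62% and 0.635%. CTCF matches were in 6.96% and 2.20%, but in 6.97% of the others at the members' GC content. From the weakest to the strongest quintile of promoter members SP/KLF matches went from 5.32% to 43.9%, ETS from 0.296% to 4.94%, NRF1 from 0.0296% to 1.39% and NFY from 4.47% to 9.85%, while SOX matches went from 7.81% to 3.08%.

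**Figure D3:**
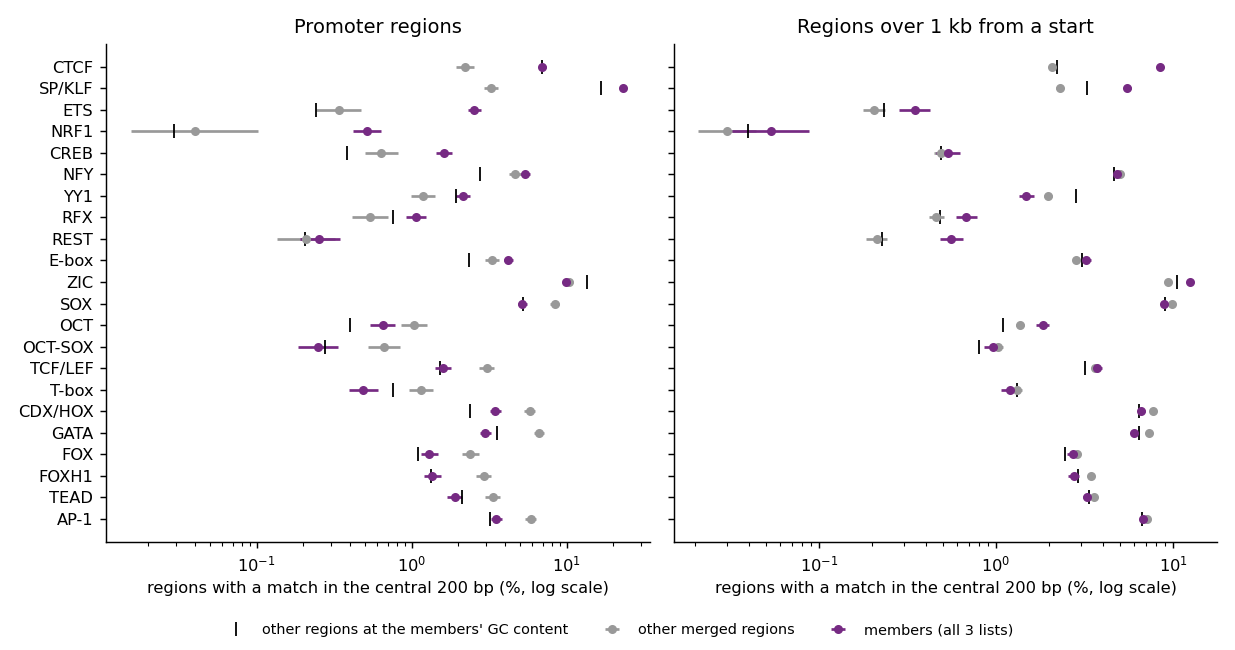
Share of regions with a match in the central 200 bp (%, log scale) for 22 motifs, in promoter regions (left) and in regions over 1 kb from a start (right). Purple points are members and grey points the other regions, with 95% Wilson intervals, and black ticks are the other regions weighted to the members' GC content. CTCF stands apart away from starts (8.41% against 2.08%), and ETS and NRF1 at promoters.

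Although every member was called in all 3 lists, some were of unequal rank. A member was counted as higher (or lower) in a list if its percentile there was at least 20 points above (or below) that in both other lists. SOX2-ON was higher in 1287 members (2.86% of all 44977) and lower in 4663 (10.4%). SOX2-OFF was higher in 1096 (2.44%) and lower in 1139 (2.53%), and CEpiLC was higher in 2526 (5.62%) and lower in 1831 (4.07%). Members as a whole had lower percentiles in SOX2-ON, with a median of 67.0 against 72.2 in SOX2-OFF and 74.6 in CEpiLC. Ranked among members only, SOX2-ON was higher in 2460 and lower in 2041, SOX2-OFF in 825 and 820, and CEpiLC in 1587 and 1829. Promoters made up from 12.0% to 18.0% of these 6 sets, compared with 37.6% of all members. Members near the top of every list cannot be 20 points apart, and the strongest decile of members was 96.4% promoters. The lower promoter share was therefore set in part by the limit itself.

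SOX letters were most frequent in shared regions that ranked higher in SOX2-ON or lower in SOX2-OFF. In all, 11 motifs were counted in the 6 sets. Of the non-promoter members higher in SOX2-ON, 179 of 1133 (15.8%, 13.8 to 18.0) held a SOX match, compared with 290 of 3888 (7.46%, 6.67 to 8.33) of those lower in SOX2-ON and 8.86% of all non-promoter members. Those lower in SOX2-OFF were also rich in SOX matches, at 13.7% (11.7 to 16), and those higher in SOX2-OFF were not, at 8.16% (6.57 to 10.1). For CEpiLC the shares were 8.55% (7.42 to 9.83) where it was higher and 10.7% (9.28 to 12.4) where it was lower. With ranks among members the SOX2-ON shares were 15.5% and 7.85%. SOX motifs were not used to choose any of these sets, but each set rests on 1 sample per state.

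TCF/LEF letters were more frequent in regions that ranked lower in SOX2-ON. TCF/LEF matches were in 5.25% (4.59 to 5.99) of non-promoter members lower in SOX2-ON and in 4.94% (3.72 to 6.53) of those higher in SOX2-OFF, beside 3.73% (3.51 to 3.95) of all. Only the first of these intervals was clear of that of all. Ranked among members only, the shares were 7.56% (6.40 to 8.91) and 7.54% (5.83 to 9.71), and ranked by fold enrichment 5.33% (4.66 to 6.09) and 3.96% (2.98 to 5.26), so the share in members higher in SOX2-OFF depended on the ranking. Members higher in SOX2-ON held them in 3.97% (2.98 to 5.27), which overlaps the interval of all. T-box matches (TCACACCT), the letters read by T and TBX6, were in 0.530% (0.243 to 1.15) of members higher in SOX2-ON, in 1.83% (1.14 to 2.90) of those higher in SOX2-OFF and in 1.19% (1.07 to 1.32) of all, with overlapping intervals. Ranked among members only, the shares were 0.757% (0.466 to 1.23) and 3.35% (2.26 to 4.94), and by fold enrichment 0.395% (0.169 to 0.920) and 2.11% (1.43 to 3.13), without overlap between the 2 sets. CDX/HOX matches (TTTATNG) were in 9.18% (7.53 to 11.2) of members lower in SOX2-OFF and 6.62% of all. GATA matches were in 9.0% (7.47 to 10.8) of members higher in SOX2-ON, against 6.02% (5.75 to 6.31) of all. Ranked among members only, the GATA share was 9.18% (8.02 to 10.5). With a limit of 30 points it was 7.18% (5.28 to 9.71), which overlaps the interval of all. FOX matches (TGTTTAC) were in 4.41% (3.36 to 5.77) of members higher in SOX2-ON, against 2.71% (2.52 to 2.90) of all. FOXH1 matches (AATNCACA) were in 4.30% (3.17 to 5.80) of members higher in SOX2-OFF and 2.74% (2.55 to 2.93) of all. With a limit of 30 points the FOXH1 share was 3.36% (1.83 to 6.07), which overlaps the interval of all. ZIC matches were in 14.8% (13.7 to 15.9) of members lower in SOX2-ON and 12.5% (12.2 to 12.9) of all.

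CTCF letters were less frequent in each of the 6 uneven sets than in all non-promoter members. They were in 1.5% (0.939 to 2.39) of non-promoter members higher in SOX2-ON and in 5.84% of those lower in SOX2-ON, the highest of the 6 sets, beside 8.41% of all. The sets were not matched to all members in strength, on which the CTCF share depended. Their median shared stretches were 250 to 358 bases, against 449 in all non-promoter members. Members lower in CEpiLC stood out by repeats, with 20.7% of their non-promoter windows at least 50% repeat-masked against 11.3% of all. The part of repeats in these ranks was not tested.

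**Figure D4:**
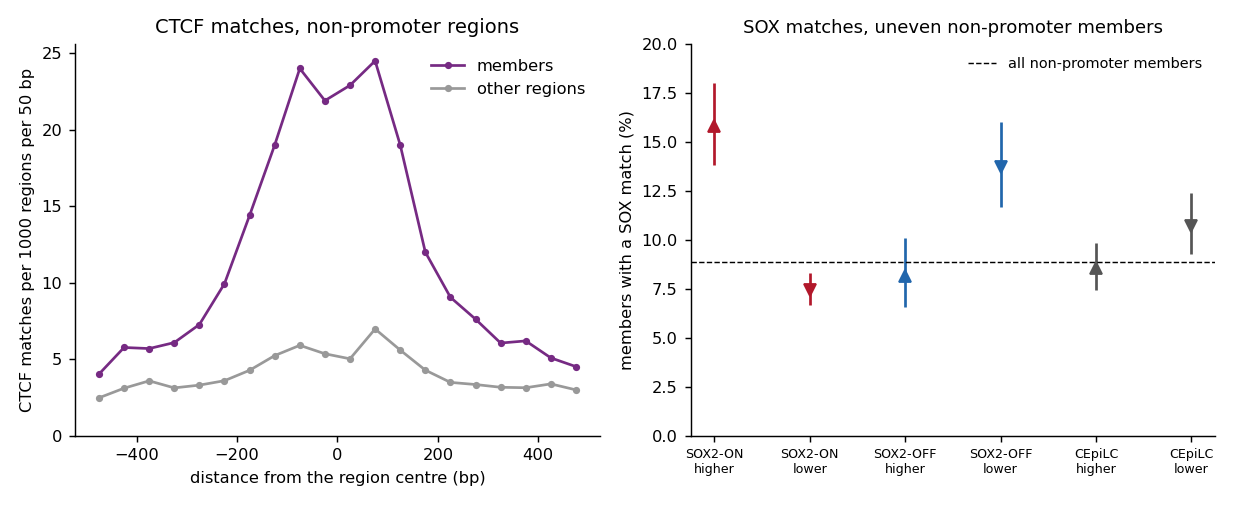
Left, CTCF matches per 1000 non-promoter regions per 50 bp against distance from the region centre (bp), for members (purple) and the other regions (grey). Right, share of non-promoter members with a SOX match (%) among those at least 20 percentile points higher (upward triangles) or lower (downward triangles) in 1 list than in both others, with 95% Wilson intervals, and all non-promoter members as a dashed line at 8.86%. CTCF matches are most frequent within 100 bp of the centre of members (21.9 to 24.5 per 1000 in each 50-bp bin), and SOX matches are most frequent where SOX2-ON ranked higher (15.8%) or SOX2-OFF lower (13.7%).

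The members most uneven in each direction show how far a shared call can hide unlike ranks. The Tead1 intron member (chr7:112850569-112851754) had percentiles of 80, 4.57 and 1.99 in SOX2-ON, SOX2-OFF and CEpiLC, with fold enrichments of 2.58, 1.44 and 1.56. TEAD1 is a DNA-binding partner of YAP in Hippo signalling. The Epha3 intron member (chr16:63806496-63807267) had 81.8, 8.58 and 9.34, with fold enrichments of 3.05, 1.47 and 1.62, and EPHA3 is an ephrin receptor. The next lay between genes (chr7:66448268-66449179), with Aldh1a3, which makes retinoic acid, as its nearest coding gene, and percentiles of 85.5, 12.8 and 13.9. The Tead1 and Epha3 members held SOX matches and the last GATA and AP-1 (TGANTCA) matches.

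Members lowest in SOX2-ON relative to both others lay in an intron of Stau2 (chr1:16293394-16294625), in an intron of 1600002D24Rik (chr16:95869090-95870871) and between genes nearest to Pcmtd1 (chr1:7019920-7022105). Their percentiles were 0.538, 85.3 and 86.8 at the first, 8.15, 89.9 and 90.4 at the second and 3.55, 83.7 and 83.9 at the last. Fold enrichment at the first, 1.48 in SOX2-ON, reached 2.89 in SOX2-OFF and 2.60 in CEpiLC. STAU2 binds RNA and transports it in neurons. This member held a SOX match although it was weakest in SOX2-ON.

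SOX2-OFF ranked highest alone at a region 119433 bp from the nearest start (chr1:190048209-190049237), with Prox1 as its nearest coding gene. PROX1 is a homeodomain factor of neural and lymphatic development. The percentiles were 4.70, 81.2 and 6.24. The next 2 lay 8167 bp from a start of Itm2c, with a window 69.0% repeat-masked, and in an intron of Med12l, 6405 bp from a start of P2ry13. SOX2-OFF ranked lowest alone in an Mmd2 intron (chr5:142589205-142590273), with 83.8, 0.687 and 72.1 and fold enrichments of 3.01, 1.43 and 1.97. The other two lay 45447 bp from a start of Camk2n1 (72.6, 4.91 and 71.5) and between genes nearest to Gja1, which encodes a gap junction protein (77.4, 3.30 and 68.9).

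CEpiLC ranked highest alone at members nearest to Tmem174, Laptm4a and Nxph2, with percentiles of 80.4, 86.1 and 77.4 against 17.0 or less in both other lists. The window of the last, in an Nxph2 intron, was fully repeat-masked. Where CEpiLC ranked lowest alone, repeats were again frequent. The member in a Cacnb2 intron (chr2:14726015-14727586) had 84.5, 83.9 and 1.70, was fully masked and matched 1027 other places, and one in a Naaladl2 intron (chr3:24023923-24024673) had 87.0, 87.8 and 5.30 and matched 41. The last, in an intron of Adgrl3 (chr5:81653857-81655613), had no second match, and its percentiles were 89.5, 78.3 and 3.24.

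To ask which genes had a shared accessible start, coding genes were counted as covered if a member lay within 1 kb of one of their starts. Of 16922 coding genes on the 16 autosomes 12129 (71.7%, 71.0 to 72.3) were covered, 1180 had other regions only and 3613 had none. Of the covered genes 10804 had 1 member at their starts and 1121 had 2. The lists below were chosen with earlier results of these data known, and each count is read against the 71.7%.

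Every listed gene of early development on the 16 autosomes had a member at its start, whether or not the gene is known to be active at this stage. This held for 7 of 7 naive pluripotency genes, 14 of 14 formative epiblast genes, 8 of 8 anterior and neural genes, 9 of 9 early streak and mesendoderm genes, 8 of 8 caudal epiblast and paraxial mesoderm genes, and 15 of 15 genes of the WNT pathway. All 18 Hoxc and Hoxd genes were covered as well. Markers of epiblast-like cells were among them, with 6 of 6 (Pou5f1, Fgf5, Otx2, Dnmt3b, Utf1 and Epcam). So were 4 of 4 caudal epiblast markers (T, Cdx2, Nkx1-2 and Fgf8). Since every developmental list was fully covered, these markers single out none of the states. Open starts do not show that a gene is expressed, and neural genes such as Pax6 and Six3 were covered too.

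Genes of general cell function were covered alike, and families of differentiated tissues were not. All 11 housekeeping genes, 30 of 30 proteasome genes (Psma to Psmd), 57 of 57 genes of mitochondrial ribosomal proteins, 37 of 37 Nduf genes of respiratory complex I and 62 of 65 Rpl and Rps genes had a member, as did 293 of 321 Zfp genes. By contrast, 27 of 973 olfactory receptor genes (2.77%, 1.91 to 4.01), 9 of 265 vomeronasal receptor genes (3.40%) and 8 of 24 keratin genes (33.3%) did. Of 20 genes of other tissues 1 was covered, Myod1, the muscle determination factor, at percentiles of 80.7, 79.3 and 79.7. A further 7 had regions of fewer lists and 12, Alb, Ins1 and Ptprc among them, had none.

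Covered starts were of different strength. The median over genes of the lowest percentile was 93.4 for the housekeeping list, 93.2 for Psma to Psmd and 91.8 over all covered coding genes. It was 87.8 for formative epiblast, 85.7 for early streak, 79.9 for caudal epiblast and 74.6 for Hoxc and Hoxd genes. The starts of developmental genes were wider, with medians of 2503, 3591, 2308 and 2294 bp for the latter 4 lists against 1590.0 bp over all covered genes. The olfactory receptor genes that were covered had a median of 33.9.

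Ranks at the starts were alike in most listed genes. A gene with several start members is given by the one whose lowest percentile was highest. That choice favours even ranks, but 10804 of the covered genes had only 1 start member. Of the 12129 covered genes, 595 (4.91%) had a start member whose highest and lowest percentiles lay 20 points or more apart. Of the developmental lists only Msgn1 and Cer1 did. At Msgn1, a bHLH factor of the presomitic mesoderm, the member (chr12:11208225-11210525) had a percentile of 10.9 in SOX2-ON, against 83.3 in SOX2-OFF and 81.0 in CEpiLC, with fold enrichments of 1.53, 2.62 and 2.22. SOX2-ON was thus low while the other two were high. At Cer1, a secreted NODAL and BMP antagonist, the percentiles were 71.0, 42.0 and 45.8, and no base lay under all 3 lists. Hoxc4 came near the limit with 65.9, 85.1 and 84.7.

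**Figure D5:**
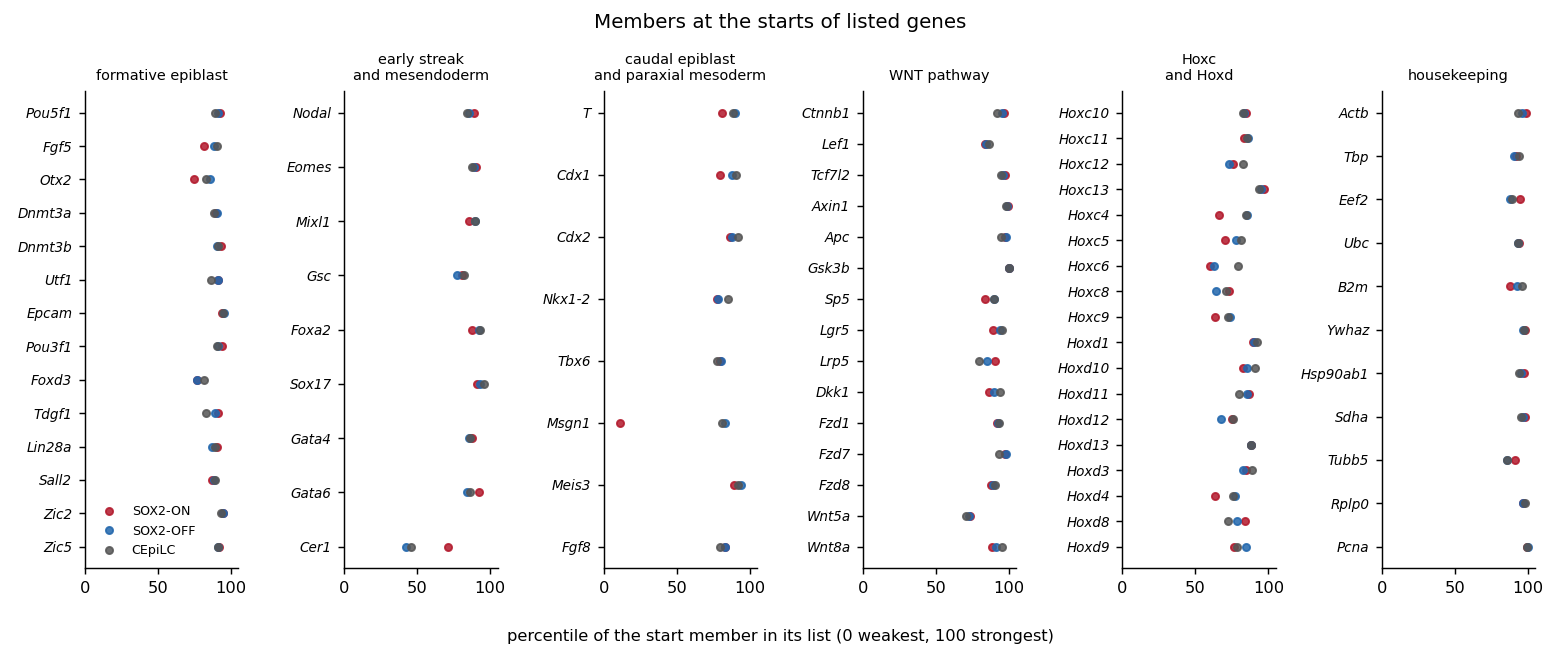
Percentile of the member at each gene's start in SOX2-ON (red), SOX2-OFF (blue) and CEpiLC (grey), from 0 for the weakest to 100 for the strongest peak of a list, with 1 panel for each of 6 gene lists. The points of most genes lie close together at high percentiles, and Msgn1 stands out with SOX2-ON at 10.9 and the others at 83.3 and 81.0.

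At the Sox2 gene all 3 lists had a peak over the start, in a member (chr3:34648778-34651406) with fold enrichments of 3.00, 2.52 and 2.46 and percentiles of 91.2, 89.5 and 89.7. The engineered alleles were inactivated by editing in place, so an accessible start is no check of the genotype. The transgene of SOX2-ON and SOX2-OFF carries Sox2 cDNA, and whether its reads added to their peaks here was not tested. Within 50 kb of Sox2 there were 15 merged regions, of which 7 were members. Over the 13 loci examined the share of members ran from 32.7% at Lef1 (18 of 55) to 58.3% at Otx2 (7 of 12), beside a median of 36.8% over coding genes, with 17 regions and 6 members. Among the 13 were the marker genes T (9 of 21), Tbx6 (11 of 19) and Cdx2 (11 of 22). Nkx1-2 (7 of 19) and Fgf8 (9 of 23) are marker genes too. Also examined were Pou5f1 (12 of 24), Fgf5 (5 of 11), Meis3 (11 of 21), Nodal (10 of 25) and Sp5 (6 of 17).

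Around T, the start member (chr17:8432322-8435234) had percentiles of 80.9, 89.9 and 88.6 in SOX2-ON, SOX2-OFF and CEpiLC and a centre with SP/KLF, SOX and TCF/LEF matches. The strongest member away from a start within 50 kb lay 24855 bp upstream (chr17:8408566-8409568), with 84.6, 94.2 and 96.0. Between them, 4054 bp upstream of the gene, chr17:8429388-8430369 ran the other way, with 90.2 in SOX2-ON and 74.3 and 80.8 in the others. Downstream, chr17:8455199-8457129 had 13.9, 56.8 and 63.8. Members of 1 locus thus differed in which state ranked highest, and this was seen with 1 sample per state. These last 2 members were picked after their values were seen.

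Members of unequal rank lay at other loci too, again picked after their values were seen. In Lef1, a WNT effector and target, an intron member with OCT, OCT-SOX and CDX/HOX matches (chr3:131117576-131119053) had percentiles of 22.5, 84.1 and 81.5, while one 7902 bp upstream with SOX and CDX/HOX matches (chr3:131101991-131102569) had 83, 51.3 and 82.7. Beside Fgf8, chr19:45733015-45734151, 2647 bp downstream, had 23.4, 83.7 and 67.8. Near Otx2, a member over an exon 26147 bp upstream (chr14:48699966-48701974) had 95.8, 62.6 and 67.8, and beside Fgf5 a member 15709 bp downstream (chr5:98292739-98293985) had 95.1, 76.0 and 56.8. The start members of Lef1 (83.3, 84.3 and 86.1), Fgf8 (83.4, 83.3 and 79.9), Otx2 (74.6, 85.8 and 83) and Fgf5 (81.8, 88.3 and 90.8) were less uneven.

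Strength here was the lowest of a member's 3 percentiles, a choice that itself favours similar ranks in the 3 lists. With that limit, the strongest member away from a start was of similar rank in the 3 lists at most other loci. At Cdx2 it lay 590 bp downstream of the gene (chr5:147299076-147300215, 88.6, 91.2 and 92.0), at Nkx1-2 42262 bp downstream (chr7:132551250-132552616, 91.8, 93.4 and 91.9) and at Sp5 1672 bp upstream (chr2:70471802-70473251, 83.2, 88.6 and 89.2). At Fgf5 it lay in the gene (chr5:98255734-98256606, 86.3, 89.9 and 86.5) and at Otx2 1889 bp downstream (chr14:48653688-48655788, 94.6, 91 and 88.6). At Lef1 it lay 24927 bp upstream (88.2, 88.7 and 91.4), and at Nodal 22794 bp upstream with a wider spread (77.9, 91.7 and 90.5). Those at Sox2 (73.4, 76.7 and 79.8), Tbx6 (72.1, 78.2 and 81.7) and Meis3 (69.8, 67.5 and 73.1) were weaker. At Pou5f1 the spread was again wider (67.7, 74.6 and 79.1), and at Fgf8 the member 47487 bp upstream (chr19:45790402-45791135) ranked higher in SOX2-OFF than in both others (68.4, 86.8 and 67.2).

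The peaks that made up the Cdx2 start member did not cover the same bases. It spanned chr5:147304120-147307613 (3494 bp), and 1777 of its bases lay under all 3 lists. The part of the study's reporter sequence read here matched 399 intronic bases at its edge (chr5:147304121-147304519) without a mismatch. The SOX2-ON peak covered all 399 of them, the SOX2-OFF peak 131 and the CEpiLC peak 96. In these 399 bases, which are only part of the reporter, 6 bases in 2 blocks, capitalised in the sequence above, were changed in the version with altered SOX sites. They lay under the SOX2-ON peak alone, since the SOX2-OFF peak began at 147304389 and the CEpiLC peak at 147304424. Bases outside a peak are not shown to be closed. The member's percentiles, 86.3, 87.8 and 91.8, are those of the strongest peak of each list, and these peaks lay at different places. In SOX2-ON it was the peak over the reporter bases (fold enrichment 2.48, against 2.21 for its other peak). In CEpiLC it was the peak at chr5:147306588-147307613 (2.20, against 2.00 for the peak reaching the reporter bases). The SOX2-OFF peak ran from 147304389 to 147307559. The similar percentiles therefore do not compare the same bases.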

How the data were processed

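ATAC-seq of 3 samples, 1 per state, was analysed from the broad peak lists that the authors deposited. Per the labels and the study's methods, reads were aligned to mm10 and peaks were called with MACS2. Whether a list pools several libraries, and read totals, are not given in the sources used here. In these deposited lists each peak has a fold enrichment over local background (a ratio), a −log10 p and a −log10 q, and a score that was not used. Peaks on 16 autosomes were merged with bedtools 2.31.1 (gap 0). Strength was the percentile of −log10 p within a list, taking a member's strongest peak. Motif windows were 200 bp at the middle of the longest stretch covered by the most lists. Starts came from GENCODE M21. Copies elsewhere were sought with blastn 2.17.0 (at least 100 bp and 95% identity). Repeat-masked bases are those in lower case in the reference. Scripts were run in Python 3.11.15 with pandas 2.3.3, scipy 1.17.1 and pysam 0.24.0, and the counting was tested on simulated data.

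The members, gene lists and motif names were chosen with earlier results of these data known. The motif letters, the CpG-rich limits and the choice of promoter sequences were set after the files were seen. Members were named if they were the 5 strongest at coding starts or the 5 strongest away from starts, the 3 most uneven in each list and direction away from starts, at the start of or strongest within 50 kb of 13 loci, over the Cdx2 reporter, the widest, or the 2 strongest single-copy CTCF members away from starts. Others are said to be picked after their values were seen. Alternatives changed the peak threshold, list length, merging, peak width, promoter distance, strength measure, motif window and GC content. Chromosomes 6, 8 and 11 were left out of all but one of them.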

Additional observations from a re-analysis of the deposited data

How the results depend on the processing

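No paired analysis was possible because each state had 1 sample, and no sample could be left out. Members numbered 19392 with a −log10 q of at least 5 and 29682 from the strongest 50000 peaks of each list. Their share of merged regions was 37.7% at a −log10 q of at least 2, 41.7% at 5, 39.7% in the strongest 50000, 32.6% when peaks up to 500 bp apart were merged, 26.3% with 500 bp at peak midpoints, 26.9% over chromosomes 1 to 19 and 29.6% when 100 bases had to lie under all 3 lists. Merging over 500 bp gave 1956 members with no shared base. The promoter share of members and of the other regions was 35.5% and 7.29% with starts within 500 bp, 44.5% and 18.9% within 2500 bp, 31.7% and 6.30% with coding starts only, 63.6% and 12.7% at a −log10 q of at least 5, and 34.0% and 8.58% from the window centre. Spearman's rho at promoters and elsewhere was 0.959 and 0.670 (SOX2-ON, SOX2-OFF), 0.915 and 0.574 (SOX2-ON, CEpiLC) and 0.959 and 0.742 (SOX2-OFF, CEpiLC).

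With a limit of 30 points, members higher and lower numbered 599 and 2106 in SOX2-ON, 346 and 469 in SOX2-OFF and 915 and 913 in CEpiLC. Ranked among members, SOX2-ON had 2460 and 2041 and CEpiLC 1587 higher.

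Of ratios of members to other regions, 6 changed sides of 1 under an alternative. SOX over the whole region was 1.86 away from starts (0.904 in the window) and 1.68 at promoters (0.620), where the members are wider. OCT away from starts was 0.966 (1.35) at the SOX2-ON centre, where only other regions with a SOX2-ON peak were counted. CTCF at promoters was 0.999 at the members' GC content (3.16). Whole regions gave 3.64 for SP/KLF and 2.51 for OCT away from starts and 5.15 for CTCF at promoters. GC content brought SP/KLF at promoters to 1.39 and SOX to 0.985. In regions at or above the 80th percentile CTCF was 7.38 away from starts and 8.35 at promoters, and SOX 0.599 and 0.309. For regions strong in SOX2-ON, SOX2-OFF and CEpiLC taken singly, SOX away from starts was 0.540, 1.07 and 1.87, and CTCF 11.4, 17.5 and 3.08. Other tissues had 4 covered genes, and Olfr 48, within 2500 bp. At a −log10 q of at least 5, Olfr had 3, Vmn 2 and Krt 2. The SOX share was 20.4% (15.8% before) in members higher in SOX2-ON when only members at or above the 80th percentile of a list were kept. In those lower in SOX2-OFF it was 27.4% (13.7% before). This left 455 and 146 non-promoter members. The filter uses the percentiles that define the sets, which pass it only through lists where they rank high, so it is no separate check. It was 6.58% in members higher in CEpiLC with a limit of 30 points and 9.10% in those lower in CEpiLC by fold enrichment. The window centre, ranks among members and the 80th percentile were chosen after seeing the data. A further 97 recomputed counts, shares, correlations and ratios, and 20 SOX shares of uneven members, moved by less than 1.5-fold, 0.05 or their interval. The causes were not tested. Depth is not known for these samples. A region absent from a list was not called there and is not shown to be closed, and 1 sample per state gives no spread.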
